A study of Mus musculus with 9 samples.

Results

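The chromatin of 6 genes of the Schwann cell and glial lineage, Sox10, Foxd3, Erbb3, Pou3f1, Egr2 and Mbp, was examined in cells sorted from the developing mouse cochlea. A peak of accessible chromatin was counted for a gene when its summit lay nearer to a transcription start site of that gene than to one of any other protein-coding gene, at a distance of at most 500 kb (mm9, GENCODE vM1). Of the 286921 peaks in 9 lists, 136 were assigned to these genes. When the peaks of all lists were merged within 100 bp, 34 of 69415 regions held at least 1 of them: 4 at Sox10, 6 at Foxd3, 3 at Erbb3, 1 at Pou3f1, 6 at Egr2 and 14 at Mbp.

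The cells came from embryos heterozygous for an EGFP knock-in at Sox2 (strain B6;129S-Sox2tm2Hoch/J), which all groups shared, and were sorted by FACS for the highest or the lowest EGFP. Sox2-EGFP+ cells were profiled by ATAC-seq at E12, E14.5 and E16 (2 samples each), and Sox2-EGFP- cells at E14.5 (1 sample) and at E16 (2 samples). Each Sox2-EGFP+ sample pooled the cochlear ducts of a litter, and the nerve tissue was dissected away before sorting to remove glia that carry EGFP. Glia that remained would have been sorted with the prosensory cells, since both express Sox2, so the cell of origin of a Sox2-EGFP+ peak cannot be told apart here.

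In the peripheral nervous system, glia arise from neural crest cells. Sox10, an HMG-box transcription factor, is needed for this lineage and is kept on in Schwann cells, and Foxd3, a forkhead factor, marks crest cells and early glial precursors. Erbb3 is the receptor through which axonal neuregulin keeps Schwann cell precursors alive. Pou3f1 (Oct6) and Egr2 (Krox20) act in turn at the start of myelination, and Mbp is a structural protein of the myelin sheath. Sox10 is also expressed by the otic epithelium itself.

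The lists differed in length, from 7577 peaks at E12 to 66332 at E14.5, and the read depth behind them is unknown from the lists. The labels of 3 of the 4 E16 samples contradict each other on the cell type, and samples were grouped by title. By that grouping, peaks outside promoters at 14 prosensory genes numbered 29 to 42 in the Sox2-EGFP+ lists of E14.5 and E16 and 17 to 20 in the Sox2-EGFP- lists (among the 20000 strongest peaks of each list). At 13 mesenchymal genes they numbered 13 to 16 and 22 to 29, in that order, so the titles and the marker loci went together in these 7 lists.

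The sequences below are from regions of Sox10 and Egr2, outside the core promoters, whose mean percentile at E14.5 and E16 was higher in Sox2-EGFP+ than in Sox2-EGFP- lists. Not all of them were strong in every Sox2-EGFP+ list. Each is the 300 bases around the summit of the region's strongest peak, on the plus strand of mm9. Capitals mark the 6-letter Sox strings ACAAAG and ACAATG on either strand. The first is from the region 11.5 kb downstream of the Sox10 start, a distance measured to its strongest summit assigned to Sox10. Its window (chr15:78982336-78982635) centres on a stronger summit, 12.4 kb from the start and nearer to Polr2f. The second lies 11.6 kb upstream (chr15:79006379-79006678) and the third 28.7 kb upstream (chr15:79023470-79023769). The fourth, 48.6 kb upstream of Sox10 (chr15:79043322-79043621), was nearer to the start site of Pick1 and was chosen after its values were seen.
Sox10 downstream 11.5 kb: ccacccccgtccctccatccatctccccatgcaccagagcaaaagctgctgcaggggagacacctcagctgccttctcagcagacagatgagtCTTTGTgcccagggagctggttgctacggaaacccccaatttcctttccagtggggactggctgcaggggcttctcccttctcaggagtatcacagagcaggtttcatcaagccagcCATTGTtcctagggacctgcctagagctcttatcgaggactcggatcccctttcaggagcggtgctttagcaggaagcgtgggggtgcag
Sox10 upstream 11.6 kb: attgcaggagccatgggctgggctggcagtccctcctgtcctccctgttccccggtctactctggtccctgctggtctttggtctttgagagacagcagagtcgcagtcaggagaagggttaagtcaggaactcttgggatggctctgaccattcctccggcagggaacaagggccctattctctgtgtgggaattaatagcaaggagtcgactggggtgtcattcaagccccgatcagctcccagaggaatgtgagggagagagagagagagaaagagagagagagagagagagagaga
Sox10 upstream 28.7 kb: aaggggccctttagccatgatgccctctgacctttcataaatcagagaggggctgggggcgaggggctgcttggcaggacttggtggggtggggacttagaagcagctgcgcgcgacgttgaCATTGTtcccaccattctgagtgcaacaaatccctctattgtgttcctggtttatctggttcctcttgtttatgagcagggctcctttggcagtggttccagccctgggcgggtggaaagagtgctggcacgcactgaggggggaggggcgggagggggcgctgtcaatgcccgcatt
Sox10 upstream 48.6 kb: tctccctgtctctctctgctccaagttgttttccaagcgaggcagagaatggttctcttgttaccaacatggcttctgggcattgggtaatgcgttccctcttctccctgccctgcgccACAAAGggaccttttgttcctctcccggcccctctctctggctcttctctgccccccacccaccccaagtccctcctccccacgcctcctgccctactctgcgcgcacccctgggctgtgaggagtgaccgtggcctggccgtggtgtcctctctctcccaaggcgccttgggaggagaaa

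At Egr2, the first sequence lies 76.6 kb upstream (chr10:66921520-66921819), the second 23.1 kb upstream (chr10:66975019-66975318) and the third 0.556 kb downstream of a start site, in an intron (chr10:66998738-66999037).
Egr2 upstream 76.6 kb: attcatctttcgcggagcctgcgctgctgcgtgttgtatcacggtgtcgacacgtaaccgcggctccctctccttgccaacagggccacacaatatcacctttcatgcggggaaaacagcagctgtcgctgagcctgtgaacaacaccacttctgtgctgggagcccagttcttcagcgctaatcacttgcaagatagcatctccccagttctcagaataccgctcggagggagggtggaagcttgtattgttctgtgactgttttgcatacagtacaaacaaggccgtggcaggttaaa
Egr2 upstream 23.1 kb: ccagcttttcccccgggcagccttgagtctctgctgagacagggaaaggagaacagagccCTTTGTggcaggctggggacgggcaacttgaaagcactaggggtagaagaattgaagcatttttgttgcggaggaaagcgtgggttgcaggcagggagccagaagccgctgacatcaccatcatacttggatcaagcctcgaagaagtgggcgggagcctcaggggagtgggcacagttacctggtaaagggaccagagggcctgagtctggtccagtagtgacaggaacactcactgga
Egr2 intron: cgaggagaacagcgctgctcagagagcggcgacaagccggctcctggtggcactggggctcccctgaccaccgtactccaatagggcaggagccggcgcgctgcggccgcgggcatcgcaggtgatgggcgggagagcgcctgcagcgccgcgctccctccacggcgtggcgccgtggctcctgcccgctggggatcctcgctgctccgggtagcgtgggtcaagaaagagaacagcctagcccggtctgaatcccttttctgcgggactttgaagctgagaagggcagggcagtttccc

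Of the 34 regions, 27 had peaks in Sox2-EGFP+ lists and in no Sox2-EGFP- list, 7 had peaks in lists of both cell types, and 0 were found in Sox2-EGFP- lists alone. Over all 69415 regions these shares were 65.5%, 28.8% and 5.63%. A peak in at least 3 Sox2-EGFP+ lists and in no Sox2-EGFP- list was present at 16 of the 34 regions, against 25.8% of all regions. Among the 7 promoter regions (from 1000 bp before to 100 bp after a start site) 4 were open in both cell types, and among the 27 regions outside promoters 3 were.

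**Figure D1:**
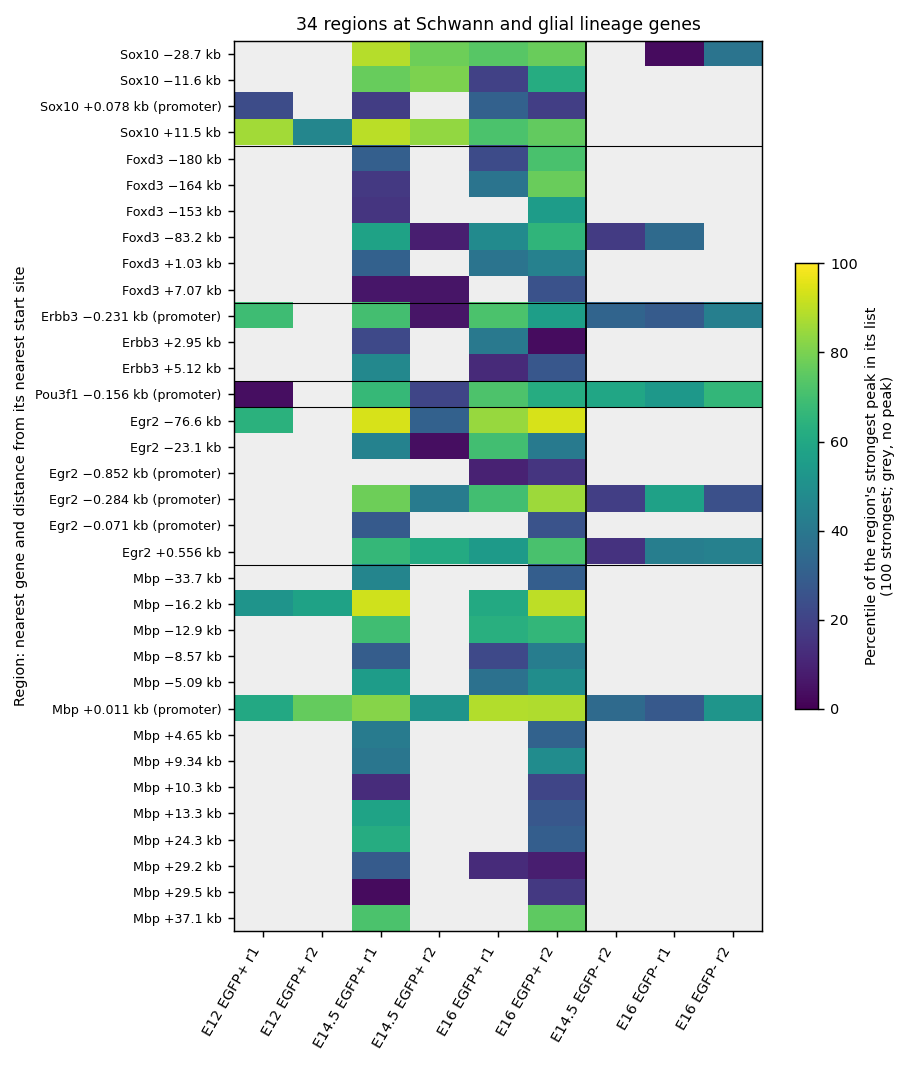
Percentile of the strongest peak (100, strongest in its list) of each of the 34 regions (rows, by gene and distance from the nearest start site) in each of the 9 lists (columns, EGFP+ for Sox2-EGFP+ and EGFP- for Sox2-EGFP-, r for replicate), grey where a list had no peak. The vertical line parts the 6 Sox2-EGFP+ lists from the 3 Sox2-EGFP- lists, in which 7 regions had a peak in any list.

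The lengths of the lists bear on these counts. All 34 regions had a peak in at least 1 of the 2 longest lists (E14.5 Sox2-EGFP+ replicate 1 and E16 Sox2-EGFP+ replicate 2), and 10 had peaks in these 2 lists alone, against 35.4% of all regions. The E14.5 Sox2-EGFP+ replicate 2 list, with 22962 peaks, was close in length to the 3 Sox2-EGFP- lists, with 23302 to 23899. It had a peak at 12 of the 34 regions, and the Sox2-EGFP- lists had one at 6, 7 and 6. Between these 4 lists, a comparison chosen after the data were seen, 5 of 12 regions were open in the Sox2-EGFP+ list alone, 7 in both cell types and 0 in Sox2-EGFP- lists alone. For all regions of the 4 lists the shares were 22.3%, 45.9% and 31.8%.

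When each list was limited to its 7500 strongest peaks, the 6 Sox2-EGFP+ lists held 2 to 5 peaks at these genes and each Sox2-EGFP- list held 0, so these lists did not overlap. The E12 lists, a stage without Sox2-EGFP- cells, held 5 and 3, and the Sox2-EGFP+ lists of E14.5 and E16 held 3, 3, 2 and 2. The cutoff keeps nearly all of the shortest E12 list and a smaller part of the longer lists. How often other sets of genes part in this way was not tested. The 7 regions that remained were all open in Sox2-EGFP+ lists alone, against 34.6% of regions built in the same way, while 53.9% of those were shared and 11.5% were open in Sox2-EGFP- lists alone. The Erbb3 region among them came from 1 list, of E12. With the 20000 strongest peaks of the E14.5 and E16 lists, the totals were 8, 9, 10 and 8 in Sox2-EGFP+ and 6, 7 and 8 in Sox2-EGFP-, which touch at 8. Then 8 of 15 regions were open in Sox2-EGFP+ lists alone, 6 in both and 1 in Sox2-EGFP- lists alone, beside 33.6%, 48.2% and 18.2% of all such regions.

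**Figure D2:**
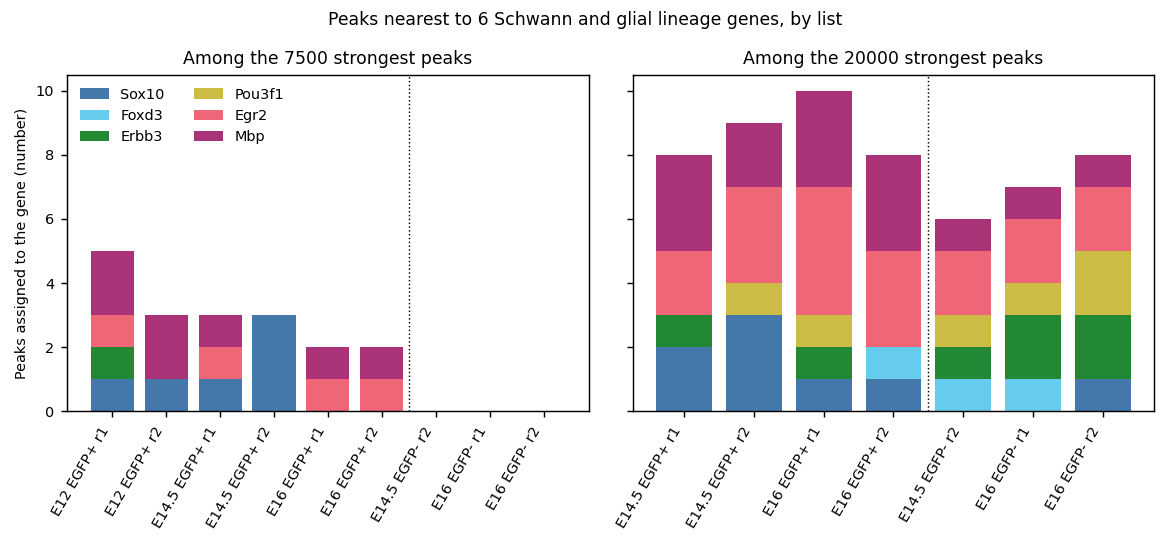
Number of peaks assigned to each of the 6 genes in each list (stacked bars; EGFP+ and EGFP- stand for the Sox2-EGFP+ and Sox2-EGFP- lists, r for replicate), among the 7500 strongest peaks of all 9 lists (left) and the 20000 strongest of the 7 lists of E14.5 and E16 (right). At left the Sox2-EGFP+ lists, which include E12 lists without a Sox2-EGFP- counterpart, hold 2 to 5 peaks and the Sox2-EGFP- lists 0. At right both reach 8.

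The numbers of peaks per gene were compared between 4 Sox2-EGFP+ and 3 Sox2-EGFP- lists of E14.5 and E16 by a two-sided exact permutation test over samples, which cannot give a p below 0.0286 with this design. Of 15670 genes, 4.4% had an unadjusted p under 0.05 with more peaks in Sox2-EGFP+ and 4.03% with fewer. After Benjamini-Hochberg adjustment over all of them the smallest p was 0.339, so 0 genes passed at 0.05 and 1320 did without adjustment. Of the 6 glial genes, 0 had an unadjusted p under 0.05. The mean was higher in Sox2-EGFP+ for Sox10, Egr2 and Mbp and lower for Foxd3, Erbb3 and Pou3f1, with a median difference of 0.292 peaks over the 6 genes and 0 over all genes. The direction turned under other ways of counting peaks or grouping samples for Foxd3, Erbb3 and Pou3f1. Outside promoters the difference was 0 at Erbb3 and at Pou3f1. The 20000 strongest peaks, used here, were most of each Sox2-EGFP- list and a smaller part of the longest Sox2-EGFP+ lists. By the study's methods each Sox2-EGFP+ replicate is a litter, and some Sox2-EGFP- cells were sorted in parallel with Sox2-EGFP+ cells, so samples of the 2 cell types may share a litter, which these unpaired tests ignore. With same-numbered samples of a stage taken as 3 pairs, sign flips allow a p of 0.25 at the lowest, and 0 genes and 0 regions reached 0.05. In bulk samples, fewer cells of a type and less open chromatin per cell cannot be told apart.

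Sox10 (ENSMUSG00000033006.8, chr15:78985343-78994920, minus strand) had a region that parted the cell types in every list. This region lay downstream of the gene (chr15:78981998-78983852, intergenic, 11.5 kb from the start) and had a peak in all 6 Sox2-EGFP+ lists and in no Sox2-EGFP- list. The strength of a region in a list is given as the percentile of its strongest peak by p-value, 100 being the strongest of the list and 0 no peak. The percentile here was 86.1 and 45.9 at E12, 89.7 and 83.7 at E14.5 and 71.7 and 75.9 at E16. The 4 lists of E14.5 and E16 lay 80.3 percentile points above the Sox2-EGFP- lists on average, which is the separation of every sample (exact permutation p = 0.0286, adjusted p over all 69140 regions tested = 0.319). In 3 of the lists the summit was nearer to Sox10, and in the others it was nearer to Polr2f.

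Exact permutation tests of the same kind across all regions gave an unadjusted p under 0.05 for 6.42% with a higher and 2.54% with a lower percentile in Sox2-EGFP+, and 0 of 6194 such regions passed after adjustment. At the glial genes 3 of 34 regions had one, all higher in Sox2-EGFP+, and the median difference over the 34 was 23.2 percentile points, beside 15.6 over all regions. The other 2 of these 3 regions were the Sox10 region 28.7 kb upstream and the Egr2 intron.

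The Sox10 region 28.7 kb upstream (chr15:79022969-79024387, intergenic) had peaks in the Sox2-EGFP+ lists of E14.5 and E16 and lower-ranked ones in Sox2-EGFP- cells. Its percentiles were 88.8 and 77.9 at E14.5 and 74.1 and 77.1 at E16 in Sox2-EGFP+, with no peak at E12. The E12 lists were the shortest, and 21.3% of all regions with a Sox2-EGFP+ peak had one at E12, so a time of opening cannot be read from this. In Sox2-EGFP- there was no peak at E14.5, and the percentiles were 3.07 and 38.4 at E16 (difference 65.7, exact permutation p = 0.0286, adjusted p = 0.319). By fold enrichment over local background the 4 Sox2-EGFP+ peaks were 9.78, 4.58, 6.34 and 6.42 and the 2 Sox2-EGFP- peaks 3.66 and 5, which overlap (exact permutation p = 0.0857).

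The remaining Sox10 regions were confined to the Sox2-EGFP+ lists run here. The region 11.6 kb upstream (chr15:79006148-79006909, intergenic) had percentiles of 76.7 and 80.2 at E14.5 and of 19.3 and 61.8 at E16 (exact permutation p = 0.0571, adjusted p = 0.422). The promoter region (chr15:78994736-78995241, over the UTR) was weak, at 23.4 in an E12 list, 18.2 in an E14.5 list and 31.1 and 18.5 at E16. It had no peak in E12 replicate 2, in E14.5 replicate 2 or in any Sox2-EGFP- list.

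The rule that assigns a peak to its nearest start site left out part of the chromatin around Sox10. Within 50 kb of its start sites there were 9 regions, of which 7 were open in Sox2-EGFP+ lists alone and 2 in both cell types, and the strongest summit of 6 of them was nearer to another gene. The strongest of these 9 (chr15:79042956-79044024, intergenic, nearest to Pick1) had percentiles of 99 and 80.7 at E12, 96.5 and 85.7 at E14.5 and 94.1 and 93.1 at E16, and no peak in any Sox2-EGFP- list. Its fold enrichment was 9.51 and 6.16 at E12, 10.6 and 4.46 at E14.5 and 9 and 8.52 at E16. A peak in all 6 Sox2-EGFP+ lists and no Sox2-EGFP- list was found at 0.794% of all regions (551), and by mean percentile over the 6 lists this region stood 22nd and the region 11.5 kb downstream of Sox10 stood 182nd among them.

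With every peak within 50 kb counted, whatever its nearest gene, Sox10 had 5 and 7 of the 20000 strongest peaks at E14.5 and 5 and 4 at E16 in Sox2-EGFP+, and 1, 1 and 2 in Sox2-EGFP-. The cell types did not overlap, at 5.25 ± 1.26 (SD, n = 4) against 1.33 ± 0.577 (SD, n = 3; exact permutation p = 0.0286, adjusted p over 18199 genes = 0.313). A higher number in Sox2-EGFP+ with an unadjusted p under 0.05 was found for 4.58% of genes counted in this way. By the nearest start site, Sox10 had 2, 3, 1 and 1 against 0, 0 and 1 (exact permutation p = 0.171). Elements that the study lists as earlier enhancers of Sox10 overlapped both strong regions: Sox10E1 lay under peaks of 6 and Sox10E2 under peaks of 5 Sox2-EGFP+ lists, both in the downstream region, and U1 under peaks of 6, in the region near Pick1. By the study's list, U1 is active in the otic vesicle and also in cranial ganglia and peripheral nerve, and the other pair in the otic placode or vesicle.

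**Figure D3:**
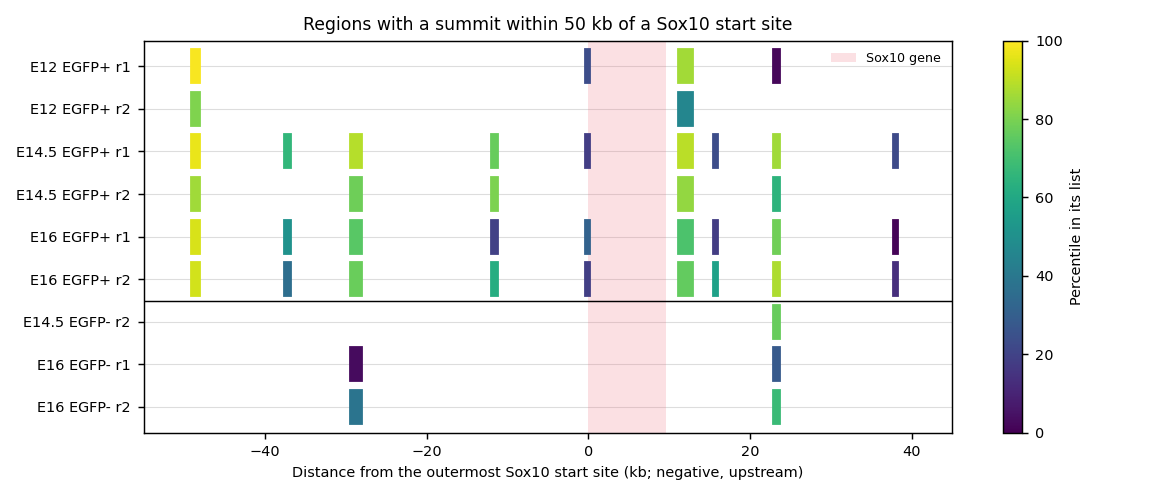
Regions with a summit within 50 kb of a Sox10 start site, by distance from the outermost start (horizontal, kb, negative upstream), in each list (rows, Sox2-EGFP+ above the line and Sox2-EGFP- below). Color gives the percentile of the region's strongest peak in the list; narrow regions are drawn at a minimum width. The regions 48.6 kb upstream and 11.5 kb downstream are present in all 6 Sox2-EGFP+ lists and in no Sox2-EGFP- list.

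Foxd3 (ENSMUSG00000067261.3, chr4:99322990-99325362) lay in a long stretch without other protein-coding start sites, and 4 of its 6 regions were 83.2 to 180 kb upstream. None of the 6 had a peak at E12 in either list. The region 83.2 kb upstream (chr4:99239456-99240094, intergenic) was shared, with percentiles of 57.7, 8.48, 47.8 and 65.4 in the Sox2-EGFP+ lists of E14.5 and E16 and of 17.5 at E14.5, 34.6 at E16 replicate 1 and no peak at E16 replicate 2 in Sox2-EGFP-. Those ranges overlapped (exact permutation p = 0.171, adjusted p = 0.498).

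The region over the single Foxd3 coding exon (chr4:99323812-99324812) had percentiles of 31, 38.4 and 44 in 3 Sox2-EGFP+ lists and no peak in E14.5 Sox2-EGFP+ replicate 2 or in the Sox2-EGFP- lists (exact permutation p = 0.143, adjusted p = 0.431). The regions 164 kb upstream (chr4:99158205-99158988) and 180 kb upstream (chr4:99142185-99143046) were each open in 3 Sox2-EGFP+ lists, most strongly in E16 replicate 2, at percentiles of 77.3 and 71.3. In the latter, which also held summits nearest to Gm12689, the peak of 1 list was assigned to Foxd3. The region 7.07 kb downstream (chr4:99329878-99330337) was weak, with percentiles of 6.08, 5.58 and 25 in 3 Sox2-EGFP+ lists. Among the 20000 strongest peaks Foxd3 had 1 in E16 Sox2-EGFP+ replicate 2, and 1 each in E14.5 Sox2-EGFP- replicate 2 and E16 Sox2-EGFP- replicate 1, a mean of 0.25 against 0.667 (exact permutation p = 0.486). Per 10000 peaks of the whole list it had 1.06 and 0.871 at E14.5 and 0.763 and 0.759 at E16 in Sox2-EGFP+, and 0.429, 0.419 and 0 in Sox2-EGFP-, without overlap and in the other direction (exact permutation p = 0.0286). That p is unadjusted and the lowest the design allows, and the share of all genes that part in this way is not given. The counts behind these values were 7, 2, 3 and 5 peaks against 1, 1 and 0.

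Erbb3 (ENSMUSG00000018166.8, chr10:128004579-128026708, minus strand) had an open promoter in both cell types. The region (chr10:128026358-128027767) had percentiles of 69 in an E12 list, 70.2 and 5.5 at E14.5 and 71.7 and 56 at E16 in Sox2-EGFP+, and of 32.1, 28.7 and 43.2 in Sox2-EGFP- (exact permutation p = 0.371, adjusted p = 0.52). The Sox2-EGFP- values lay within the range of the Sox2-EGFP+ values. Its 2 other regions, 2.95 kb (chr10:128023563-128024140) and 5.12 kb (chr10:128021415-128021851) into the first part of the gene, were intronic and open in 3 Sox2-EGFP+ lists each and in no Sox2-EGFP- list. Their percentiles were 22.1, 40.6 and 3.34 for the former and 46.5, 11.9 and 27.3 for the latter, both with an exact permutation p of 0.257. Among the 20000 strongest peaks Erbb3 had 1, 0, 1 and 0 in Sox2-EGFP+ and 1, 2 and 2 in Sox2-EGFP- (exact permutation p = 0.171). All of them lay in the promoter region, so the counts of 2 were peaks of that region and not further open regions.

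Pou3f1 (ENSMUSG00000078236.3, chr4:124334889-124337899) had no assigned region other than its promoter (chr4:124333930-124335171). This was open in 8 of the 9 lists, with percentiles of 3.89 in an E12 list, 67 and 21 at E14.5 and 72.2 and 61.9 at E16 in Sox2-EGFP+ and of 59.2, 53.3 and 66.2 in Sox2-EGFP-. The difference was -4.02 percentile points (exact permutation p = 0.971), with the Sox2-EGFP- values inside the Sox2-EGFP+ range. Among the 20000 strongest peaks Pou3f1 had 0, 1, 1 and 0 in Sox2-EGFP+ and 1, 1 and 2 in Sox2-EGFP-, all in this promoter region (exact permutation p = 0.286).

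Egr2 (ENSMUSG00000037868.8, chr10:66998223-67004936) combined a promoter region at an inner start site, open in both cell types, with distal regions found in Sox2-EGFP+ alone. The strongest region lay 76.6 kb upstream (chr10:66921445-66922083, intergenic). Its percentiles were 63.9 in an E12 list, 93.8 and 31.2 at E14.5 and 84.5 and 93.8 at E16, with no peak in E12 replicate 2 or in the Sox2-EGFP- lists (difference 75.8, exact permutation p = 0.0571, adjusted p = 0.422). The fold enrichment of these 5 peaks was 6.71, 15.7, 4.29, 11.6 and 11.2, in the same order.

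The region 23.1 kb upstream of Egr2 (chr10:66974841-66975656, intergenic) had percentiles of 44.5, 3.75, 69.9 and 41.1 in the Sox2-EGFP+ lists of E14.5 and E16 and no peak in Sox2-EGFP- (exact permutation p = 0.0571, adjusted p = 0.422). It had no peak in the short E12 lists either, which does not date its opening. The intronic region 0.556 kb from a start site (chr10:66998702-66999139) was open in all 7 lists of E14.5 and E16. It had percentiles of 66.7, 61, 54.3 and 71.1 in Sox2-EGFP+ and of 14.8, 42.6 and 43.9 in Sox2-EGFP-, which did not overlap (difference 29.5, exact permutation p = 0.0286, adjusted p = 0.319). By fold enrichment the same peaks did overlap, at 5.13, 3.72, 3.74 and 4.6 against 2.71, 4.25 and 3.75 (exact permutation p = 0.286).

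The promoter region of an inner Egr2 start site (chr10:67000053-67000739) was likewise shared, at percentiles of 77.8, 41.6, 69.9 and 85.2 against 18.4, 57.2 and 24.3 (exact permutation p = 0.0857, adjusted p = 0.431). Small peaks were found in 2 Sox2-EGFP+ lists each at 2 more regions. At the outermost start site (chr10:66997999-66998548) the percentiles were 28.4 and 25.7. They were 9.56 and 15.5 in a region 0.852 kb upstream of the same inner start site (chr10:66999577-66999859). Among the 20000 strongest peaks Egr2 had 2, 3, 4 and 3 in Sox2-EGFP+ and 2 in each Sox2-EGFP- list (exact permutation p = 0.143).

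**Figure D4:**
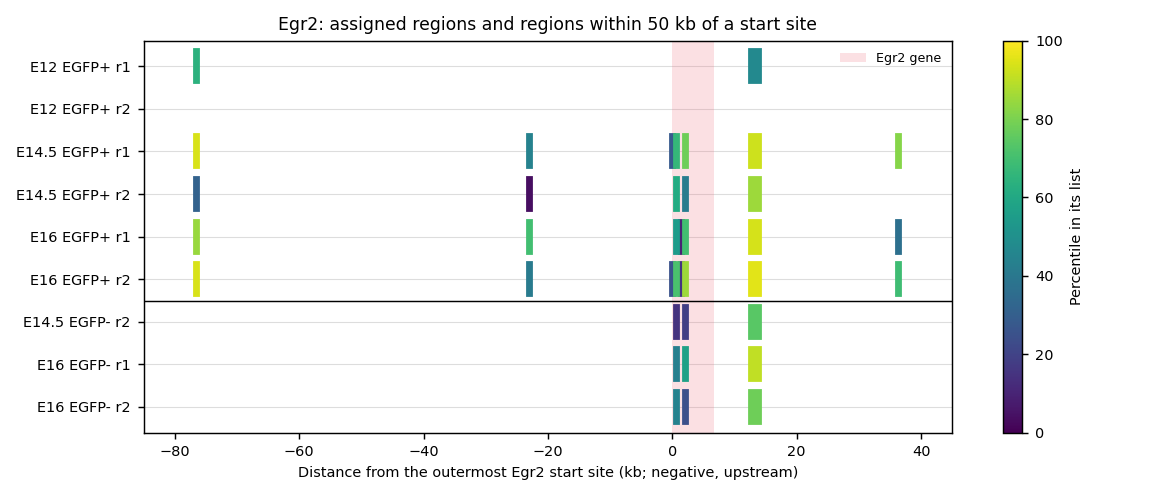
Regions assigned to Egr2 or within 50 kb of its start sites, by distance from the outermost start (horizontal, kb, negative upstream), in each list (rows, Sox2-EGFP+ above the line and Sox2-EGFP- below), colored by percentile in the list and drawn at a minimum width. The regions 76.6 and 23.1 kb upstream appear in Sox2-EGFP+ rows alone. The intronic region and the promoter region of an inner start site are open in all 7 rows of E14.5 and E16.

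Mbp (ENSMUSG00000041607.10, chr18:82644538-82755029) is a long gene with 11 protein-coding start sites, so that distances here are from the nearest of them. It held 14 regions, of which 11 lay in its own introns and 8 had peaks in the 2 longest lists alone. The promoter was the region open in all 9 lists, at percentiles of 60.5 and 76.4 at E12, 81.8 and 51.8 at E14.5 and 88.3 and 88 at E16 in Sox2-EGFP+, and of 34.6, 28 and 52.1 in Sox2-EGFP-. At E14.5 and E16 the cell types overlapped by E14.5 Sox2-EGFP+ replicate 2, the lowest of the Sox2-EGFP+ lists (exact permutation p = 0.0857, adjusted p = 0.431).

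The other 13 Mbp regions had no peak in a Sox2-EGFP- list. The intronic region 16.2 kb upstream of an inner start site was open in 5 of 6 Sox2-EGFP+ lists and had percentiles of 51.6 and 57.5 at E12, 92.8 and no peak at E14.5 and 60.7 and 90 at E16 (exact permutation p = 0.143, adjusted p = 0.431). The region 12.9 kb upstream of the outer start site reached 69.4, 63 and 66.3 in the same 3 lists of E14.5 and E16. Another 3 regions, 5.09 and 8.57 kb upstream and 29.2 kb downstream of a start site, were open in those 3 lists as well, at percentiles of 8.57 to 55.1. Among the 20000 strongest peaks Mbp had 3, 2, 3 and 3 in Sox2-EGFP+ and 1 in each Sox2-EGFP- list, where that peak was at the promoter. The cell types did not overlap, at 2.75 ± 0.5 (SD, n = 4) against 1 ± 0 (SD, n = 3; exact permutation p = 0.0571, adjusted p over all genes = 0.609).

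By stage, 7 of the 34 regions were open in either E12 list, 33 in either E14.5 Sox2-EGFP+ list and 34 in either E16 Sox2-EGFP+ list. Of all regions with a Sox2-EGFP+ peak, 21.3% were open at E12, so the share at the glial genes lay near that of the series. The 7 were the Sox10 promoter and downstream region, the Erbb3, Pou3f1 and Mbp promoters, the Egr2 region 76.6 kb upstream and the Mbp intronic region described above. In both E12 lists 3 were open, the Sox10 downstream region and the pair at Mbp. Among the 7500 strongest peaks of each list, the glial genes had 5 and 3 at E12, 3 and 3 at E14.5 and 2 and 2 at E16. That number is nearly all of the 7577 peaks of E12 replicate 2 and a small part of the 66332 of E14.5 replicate 1. Per 10000 peaks of the whole list the values were 5.07 and 3.96 at E12, 4.97 and 6.1 at E14.5 and 5.6 and 5.16 at E16, without that order. Stages were not tested: a comparison of the 2 E12 lists with the 4 later ones allows a p of 0.0667 at the lowest, and a trend over the 3 stages was not run. Sox10 had 1 and 1 of the 7500 strongest peaks at E12, 1 and 3 at E14.5 and 0 and 0 at E16, while Egr2 had 1 and 0, 1 and 0, and 1 and 1.

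Other genes of the lineage were counted from lists of glial, crest and other cell types, by peaks outside promoters among the 20000 strongest of each list. At 14 genes of myelinating Schwann cells there were 9, 8, 9 and 10 such peaks in Sox2-EGFP+ and 5, 6 and 4 in Sox2-EGFP-, without overlap. Pou3f2 alone held 3, 3, 3 and 2 of these against 0, 0 and 0. By all assigned peaks, the mean was higher in Sox2-EGFP+ for 5 genes of the list and lower for 5. How often other lists of genes part the cell types in this way was not tested. At 14 genes of glial precursors there were 6, 7, 7 and 4 against 9, 7 and 6, and at 10 neural crest genes 20, 23, 16 and 16 against 23, 17 and 17, both overlapping. At the 6 genes themselves there were 5, 6, 6 and 6 against 2, 2 and 2, and how often other sets of genes part so was likewise not tested. None of these counts was set beside the number of all peaks outside promoters in each list. Of the precursor list, Cdh19, Fabp7, Gfra3, Itga4, L1cam and Erbb2 had none in any of the 7 lists, and of the myelination list Nab2, Adgrg6, Lgi4, Prx, Gjb1 and Drp2 had none.

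In the test over all assigned peaks, 2 of 12 tested genes of the myelination list had an unadjusted p under 0.05 with more peaks in Sox2-EGFP+, and 0 had one with fewer. They were Pou3f2, a POU factor that acts beside Pou3f1, with 4, 4, 4 and 3 peaks against 1, 1 and 2, and Cnp, a myelin enzyme, with 1 in each Sox2-EGFP+ list and 0 in each Sox2-EGFP- list (exact permutation p = 0.0286 and adjusted p = 0.339 for each). Of 12 tested precursor genes, 0 had one with more and 1 with fewer, Zeb2, with 1, 1, 0 and 0 peaks against 3, 3 and 3. Of the 10 crest genes, 3 had one with more (Snai2, Sox5 and Sox6) and 2 with fewer (Ets1 and Twist1). The median difference was 0 peaks over the myelination list, -0.0833 over the precursor list and 0.167 over the crest list, and the adjusted p was at or above 0.339 throughout.

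A peak outside promoters in all 4 Sox2-EGFP+ lists of E14.5 and E16 and in no Sox2-EGFP- list was found at 6.05% of genes with any such peak, and the reverse at 3.68%. Of the 6 glial genes, Mbp showed the former. Of the other glial and crest lists Pou3f2 and Snai2 did, and no gene of them showed the reverse.

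Of the lists for other cell types, the prosensory, epithelial, mesenchymal and endothelial lists differed between the cell types without overlap, and their part in the result was not tested. The neuronal, melanocyte and macrophage lists overlapped. Epithelial genes (12) had 19 to 22 peaks in Sox2-EGFP+ and 10 to 12 in Sox2-EGFP-, and endothelial genes (10) had 3 to 7 and 8 to 15, in the same order. Neuronal genes (13) had 5 to 10 and 4 to 9, melanocyte genes (8), which share a crest origin with glia, 4 to 8 and 4 to 7, and macrophage genes (10) 1 to 5 and 1 in each list. Within these lists, Tyr, Pmel, Mlana and Slc45a2 of the melanocyte genes and Csf1r, Ptprc and Mrc1 of the macrophage genes had none. The remaining genes of both lists held the peaks counted. Of the macrophage genes, Spi1 had 1, 1, 2 and 1 in Sox2-EGFP+ and 0 in each Sox2-EGFP- list. Clec7a showed the reverse, with 0 in each Sox2-EGFP+ list and 1 in each Sox2-EGFP- list. In the other lists, Isl1 (prosensory) and Esrp1 (epithelial) had such peaks in each Sox2-EGFP+ list of E14.5 and E16 and in no Sox2-EGFP- list. Nefl (neuronal), Prrx1 and Col1a2 (mesenchymal) and Kdr (endothelial) showed the reverse.

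**Figure D5:**
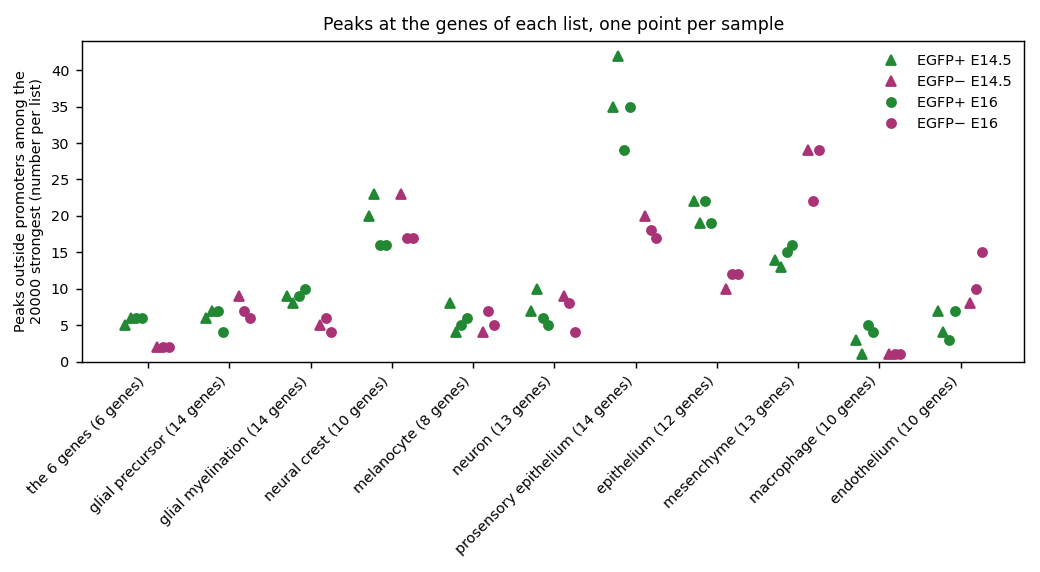
Number of peaks outside promoters at the genes of each list (vertical), among the 20000 strongest peaks of each of the 7 lists of E14.5 (triangles) and E16 (circles), for Sox2-EGFP+ (green) and Sox2-EGFP- (purple). The 6 glial genes and the myelination list lie higher in Sox2-EGFP+ without overlap, as the prosensory and epithelial lists do, while the precursor, crest and neuronal lists overlap. How often other sets of genes part in this way was not tested. Of the myelination peaks, Pou3f2 alone holds 3, 3, 3 and 2 in Sox2-EGFP+ and 0 in each Sox2-EGFP- list.

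The letters of the 34 regions were compared with those of all regions in windows of 300 bases around the summit, on both strands. No string searched contains another. A Sox string (ACAAAG or ACAATG) was present in 12 of the 34 windows, 35.3%, and in 40% of all windows. In windows of 200 bases it was present in 35.3% against 30.7%, so the direction depended on the window. The Tfap2 string GCCNNNGGC was present in 12, 35.3%, against 16.1% of all windows (8, or 23.5% against 12.1%, in 200 bases), and the windows at the glial genes had a median GC content of 56.7% against 52%. The E-box CANNTG was present in 24 (70.6% against 78.1%), the Tead string GGAATG in 3 (8.82% against 18.3%), the Gata string AGATAA in 3 (8.82% against 13.1%), the sine oculis homeobox string TCANNTTTC in 2 (5.88% against 8.08%) and the Egr string GTGGGCG in 2 (5.88% against 5.55%). The Pou octamer ATGCAAAT was in 0 of the 34 windows and in 1.76% of all. Of the sequences printed, the Sox10 region 11.5 kb downstream had 2 Sox strings, the regions 28.7 and 48.6 kb upstream 1 each, and the region 11.6 kb upstream 0.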

How the data were processed

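ATAC-seq peak lists of 9 samples were used. According to the methods, reads were trimmed with Trim Galore and aligned to mm9 with Bowtie2. Duplicate and mitochondrial reads were removed (Picard, SAMtools), and peaks were called per sample with MACS2, with a shift and extension that centre reads on the Tn5 cut. Peaks without support in a replicate of the same cell type were dropped, and neighbouring peaks were merged (bedtools). Tool versions are not given in the sources used here. The deposited lists give, per peak, the fold enrichment as a ratio over local background, and −log10 p and −log10 q; they hold no read counts, so no interval for counting error was computed. Library sizes and shares of reads in peaks, as listed in the study's sample table, differ severalfold between samples, also among the Sox2-EGFP+ samples, and were not used.

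Summits were assigned to the nearest protein-coding start site of GENCODE vM1 (at most 500 kb), and the 9 lists were merged within 100 bp (Python 3 with NumPy and SciPy; merging was checked against bedtools). Lists were compared by their 20000 or 7500 strongest peaks by −log10 p, and regions by percentile within a list. The tests were two-sided exact permutation tests over samples with Benjamini-Hochberg adjustment over all genes, or all regions with a peak in at least 2 of the 7 lists; steps were tested on simulated data. Sequences were read from the mm9 genome. Groups came from sample titles, which the cell type labels of 3 E16 samples contradict. Regions named are all promoters, up to 4 others per gene with most lists, and those in at least 3 lists of a cell type and none of the other. List genes are named by a like split (peaks in all lists of a cell type at E14.5 and E16 and in none of the other), and others by their counts or p. The members and lists were chosen with earlier results of these data known. Alternatives changed the number of peaks, assignment, merging, grouping and samples.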

Additional observations from a re-analysis of the deposited data

How the results depend on the processing

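The 27 regions open in Sox2-EGFP+ lists alone, 7 in both and 0 in Sox2-EGFP- alone were equal when peaks were merged at 0 bp or had to cover at least 50% of the strongest peak, and ranged from 26 to 27, from 7 to 7 and from 0 to 0 when a list was left out. They became 7, 0 and 0 with the 7500 strongest peaks, and 8, 6 and 1 with the 20000 strongest of E14.5 and E16, where the 1 was the Foxd3 region 83.1 kb upstream. Counting every peak within 50 kb gave 32, 14 and 0, the 4 lists of like length, chosen after seeing the data, 5, 7 and 0, and grouping by the cell type labels in place of the titles 0, 34 and 0. The mean number of peaks was higher in Sox2-EGFP+ for 3 of 6 genes in the comparison reported. An unadjusted p under 0.05 was reached by 0 genes there and by 1 gene under each of 4 alternatives. With more peaks in Sox2-EGFP+ these were Egr2 with the 10000 strongest peaks, Foxd3 with all peaks per 10000 and Sox10 with every peak within 50 kb. With fewer it was Pou3f1 with a −log10 q of at least 5 (-0.53). Each exact permutation p was 0.0286, the lowest the design allows. Within 50 kb, 4.58% of all genes had such a p with more peaks in Sox2-EGFP+. For the other settings that share was not computed, so these calls have no baseline. Directions turned for Foxd3 (0.579 with all peaks per 10000 and 0.543 with a −log10 q of at least 5), Erbb3 (0.167 with all 9 samples and 0.7 by the cell type labels) and Pou3f1 (0.5 by those labels); the cause was not tested. By fold enrichment the promoter difference turned to -0.45 at Erbb3 and to 0.586 at Pou3f1, and without E14.5 Sox2-EGFP+ replicate 2 the Pou3f1 value was 7.5 percentile points, beside -9.58 to 7.5 over all samples left out.

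The 3 regions with an unadjusted p under 0.05 became 0 without the E16 samples numbered 1, which the study lists as a sequencing batch of their own and which hold 1 sample per cell type, without the 3 samples with contradictory labels, and without any 1 sample (0 to 0), where fewer samples put the lowest possible p above 0.05. Differences at the Sox10 downstream region then ranged from 77.1 to 83.1 percentile points. Samples with the same number were compared in 3 pairs as a replicate block by sign flips: 0 genes and 0 regions reached 0.05, since the lowest p is 0.25. At E16, deviations of same-numbered samples correlated at 0.060 over 69140 regions (the only stage with 2 samples of each type), and whether same-numbered samples come from the same litter was not tested. The study describes some Sox2-EGFP- cells as sorted in parallel with Sox2-EGFP+ cells. The mean of 4, 3 and 2 peaks per list at E12, E14.5 and E16 became 3, 1.5 and 1 with the 5000 strongest peaks and 4.51, 5.54 and 5.38 with all peaks per 10000, which removed the order by stage. In 200 bases the sine oculis and Gata strings were each in 1 region.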

Other observations

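The genes whose peak numbers followed those of Egr2 and Mbp over the 9 lists, in peaks per 10000, were named as a description, with list length and library shared by all points. For Egr2 (27 peaks) the closest of 2700 genes with at least as many peaks were Epcam, an epithelial adhesion molecule (Pearson r = 0.961 over 9 lists), Jph4 (r = 0.949) and Pim3 (r = 0.943). For Mbp (45 peaks) the closest of 916 were Sorbs2 (r = 0.980), Camta1 (r = 0.968) and Stk24 (r = 0.949).

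Of the regions within 50 kb of the start sites of the 6 genes, 46 in all, 32 were open in Sox2-EGFP+ lists alone, 14 in both cell types and 0 in Sox2-EGFP- lists alone. The strongest summit was nearer to another gene in 18 of them, of which 6 were around Sox10 and 6 around Erbb3. At Erbb3, 5 of 9 such regions were open in both cell types, and at Pou3f1 3 of 5.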
